A study of Mus musculus with 6 samples.

Results

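Genes of coenzyme A (CoA) turnover were followed in mouse liver: the vanins Vnn1 and Vnn3, the pantothenate kinases Pank1 and Pank3, and the acyl-CoA thioesterases Acot1, Acot2, Acot3, Acot4, Acot8 and Acot12. They were chosen by their measured difference between the groups described here together with their place in the pathway, and found by symbol in the platform annotation, as 10 of the 12393 genes with a probe set of their own, and were read by 14 of 22626 probe sets, a probe set being the group of short probes that reports on a transcript. Male C57BL/6J mice were treated with drinking source water (DSW in the labels) or, as control, with distilled water, and livers were taken after 90 d. Each group held 10 mice, of which the livers of 9 were homogenised in pools of 3, so that each group had 3 pools and each pool 1 one-colour Affymetrix array. A pool averages over its animals, so the spread between pools is not that between mice. The labels give neither the make-up of the source water nor which animals entered which pool. All values are log2 signals, on which a difference of 1 is a doubling, and the number of arrays limits their precision.

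CoA carries acyl groups through fatty acid oxidation, lipid synthesis and acetylation, and its level in the liver is set by synthesis from the vitamin pantothenate and by breakdown. Pantothenate kinases catalyse the first and rate-limiting step of synthesis, and vanins are pantetheinases outside the cell that split pantetheine, a breakdown product of CoA, into pantothenate and cysteamine. Acyl-CoA thioesterases release free CoA and a fatty acid from acyl-CoA in the cytosol, mitochondria or peroxisomes, and several of the genes, Vnn1, Pank1 and Acot1 among them, are known targets in mouse liver of PPAR-alpha, the nuclear receptor that governs hepatic fatty acid oxidation.

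The 10 genes did not move as one group. By the brightest probe set of each gene, 5 were higher and 5 lower in source water, where 49.5% of all genes were higher, and their median log2 difference (source water minus control) was 0.04 against -0.00160 for all genes. The single values were nevertheless spread widely, with a median absolute difference of 0.31 against 0.0992 for all genes, and ranged from -0.96 for Acot3 to 2.73 for Vnn1. At least 1.5-fold higher were 2 of the 10, Vnn1 and Acot1, against 1.4% of all genes, and 1, Acot3, was at least 1.5-fold lower, against 0.807% of all genes. Because the genes were chosen with this same contrast known, these values are a description and no p-value is given for them. In whole liver, a change in the number of cells of a type and in RNA per cell cannot be told apart.

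**Figure D1:**
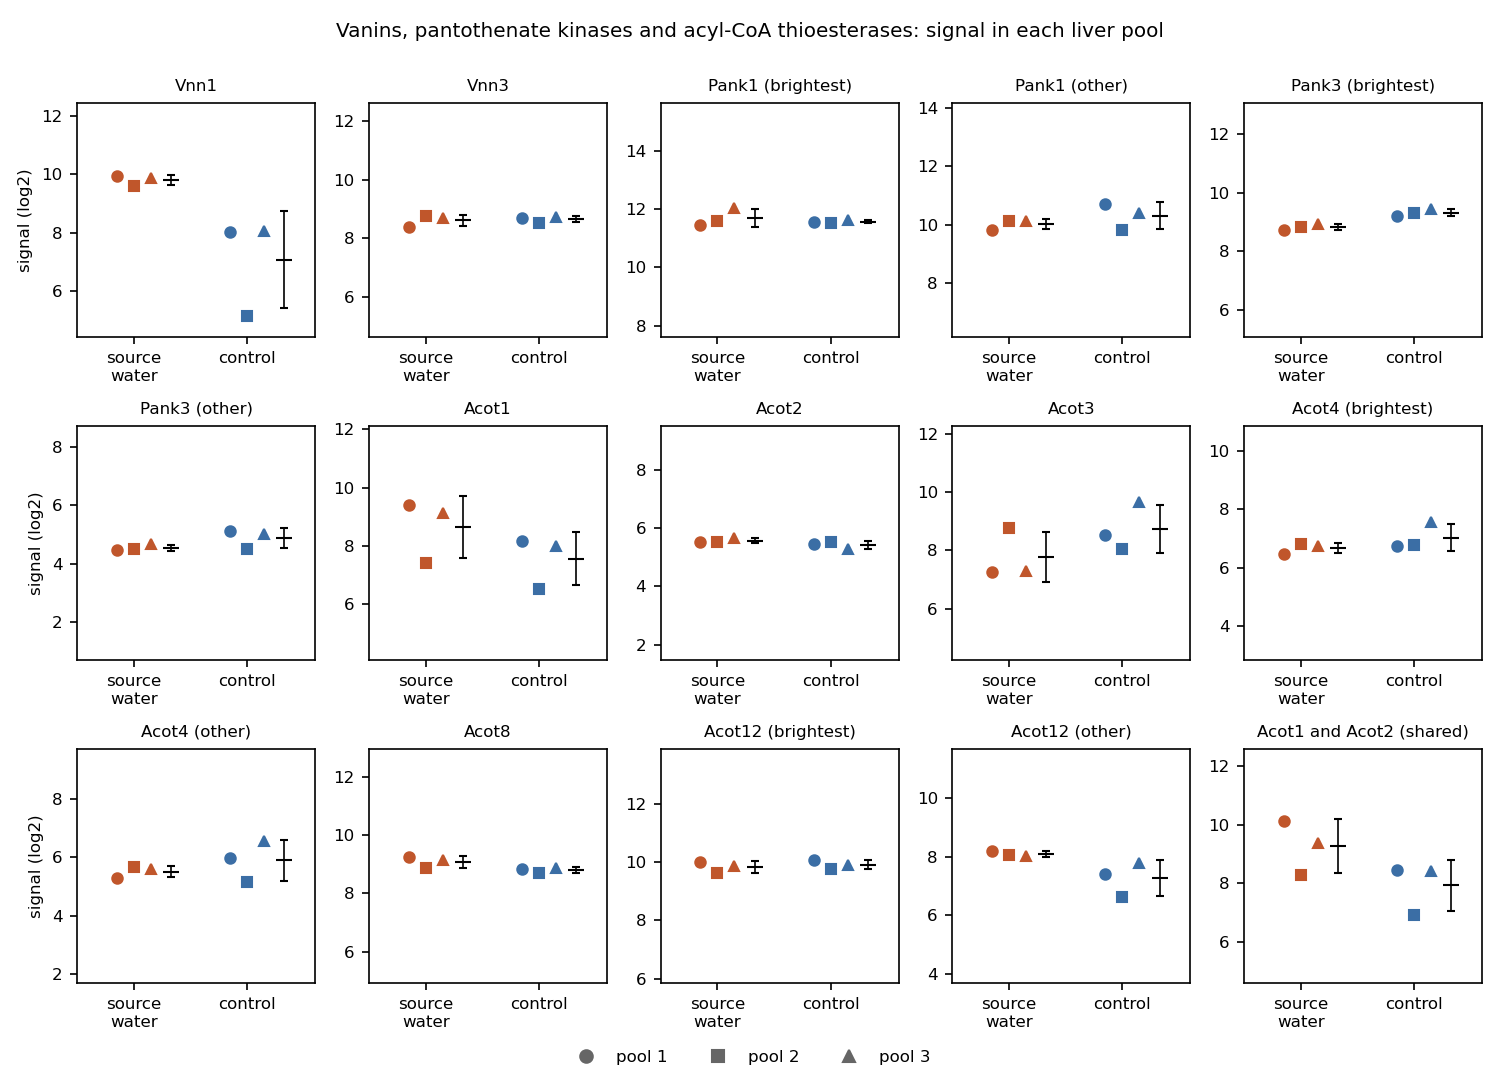
Signal (log2) of each probe set of the 10 genes, and of 1 probe set shared by Acot1 and Acot2, in the source water pools (left, orange) and control pools (right, blue), with mean and SD (n = 3) beside each group and every panel spanning the same number of log2 units. The low control pool 2 of Vnn1 at 5.15, the low pool 2 of both groups for Acot1, and the separate groups of Pank3 stand out.

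Vnn1, the main pantetheinase of mouse liver, read 9.95, 9.59 and 9.86 in source water pools 1, 2 and 3, against 8.01, 5.15 and 8.05 in control pools 1, 2 and 3. The groups did not overlap: every source water pool lay above every control pool, the 3 source water pools lay close together, and control pool 2 lay far below the other controls. The means were 9.80 ± 0.18 in source water and 7.07 ± 1.66 in control (SD, n = 3 each), a difference of 2.73 ± 0.68 (moderated SE), or 6.62-fold, and the highest of all 22626 probe sets. The authors' deposited ratio of Vnn1, 6.62 and ranked 1 among all probe sets, comes from the same arrays and is no separate evidence. Control pool 2 carried much of this size. The SD of Vnn1 among control pools ranked 10 of all probe sets, and without control pool 2 the difference was 1.77 ± 0.14, or 3.41-fold.

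Vnn3, a second pantetheinase gene that lies next to Vnn1 on mouse chromosome 10, had overlapping groups. It read 8.39, 8.76 and 8.69 in source water pools, against 8.71, 8.53 and 8.71 in control pools. The means differed by -0.04 ± 0.13 (SE), less than the spread between pools, and control pool 2, though the lowest control, lay close to the other controls. Whether Vnn3 differed from Vnn1 in its response was not tested.

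Among the pantothenate kinases, Pank3, a form found in most tissues, was lower in source water. Its brightest probe set read 8.74, 8.81 and 8.92 in source water pools, against 9.21, 9.31 and 9.43 in control pools. The groups did not overlap and each was tight, with means of 8.82 ± 0.09 in source water and 9.32 ± 0.11 in control (SD, n = 3 each) and a difference of -0.50 ± 0.11 (SE), or 0.709-fold. When each pool was left out in turn it ranged from -0.55 to -0.44, the narrowest such range of the 14 probe sets. A dim second probe set of Pank3, with a mean of 4.72 against a median of 5.83 over all probe sets, differed by -0.33 ± 0.17 and overlapped between groups, since control pool 2 lay at 4.51 beside source water pools at 4.48, 4.50 and 4.66. Without control pool 2 the dim probe set differed by -0.52 and the brightest by -0.50. Why the pair differed in size with all pools was not tested.

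Pank1, whose product is abundant in liver, was read by a pair of probe sets that disagreed in sign. The brightest gave 11.47, 11.58 and 12.03 in source water pools, against 11.55, 11.53 and 11.62 in control pools, and differed by 0.13 ± 0.15 (SE). The other gave 9.80, 10.13 and 10.12 in source water pools, against 10.72, 9.81 and 10.39 in control pools, and differed by -0.29 ± 0.22. Both overlapped between groups, and neither difference exceeded the spread between pools: source water pool 3 alone set the sign of the first, which was -0.04 without it, and control pool 2 was the lowest control in both.

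Acot1, a cytosolic thioesterase of long-chain acyl-CoA, read 9.39, 7.42 and 9.14 in source water pools, against 8.17, 6.52 and 7.99 in control pools. Pool 2 was the lowest of each group, and its source water value lay below controls 1 and 3, so the groups overlapped. The means were 8.65 ± 1.07 in source water and 7.56 ± 0.90 in control (SD, n = 3 each), and the difference of 1.09 ± 0.58 (SE), or 2.13-fold, was about the size of the spread between pools. It was 1.71 without source water pool 2 and 0.57 without control pool 2, just under 1.5-fold. The spread itself was unusual, since the SD of Acot1 ranked 60 among all probe sets in source water and 92 in control.

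Acot2, the mitochondrial counterpart of Acot1, had 1 probe set of its own, which was dim: 5.52, 5.52 and 5.66 in source water pools, against 5.47, 5.52 and 5.27 in control pools. Source water was higher in every pool by the narrowest of margins, and the difference was 0.15 ± 0.11 (SE). A further probe set is annotated to both Acot1 and Acot2, whose transcripts are near-identical, and cannot be assigned to either. It read 10.13, 8.27 and 9.39 in source water pools, against 8.45, 6.91 and 8.40 in control pools, a difference of 1.34 ± 0.53 with the same low pool 2 in each group as the probe set of Acot1.

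The peroxisomal thioesterases of the same chromosomal cluster lay on the other side. Acot3 read 7.25, 8.78 and 7.30 in source water pools, against 8.52, 8.03 and 9.65 in control pools. Source water pools 1 and 3 were below all controls, whereas source water pool 2 was above 2 of the 3 controls, so the groups overlapped. Their means were 7.78 ± 0.87 in source water and 8.73 ± 0.83 in control (SD, n = 3 each), a difference of -0.96 ± 0.49 (SE), or 0.515-fold, which ranged from -1.46 without source water pool 2 to -0.50 without control pool 3. The probe set of Acot3 is one that its name marks as shared between related transcripts, and signal from other members of the cluster cannot be separated from it.

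Acot4, a peroxisomal thioesterase that acts on succinyl-CoA and other dicarboxylyl-CoA, was read by a pair of probe sets that agreed in sign. The brightest gave 6.48, 6.82 and 6.73 in source water pools, against 6.76, 6.77 and 7.55 in control pools, a difference of -0.35 ± 0.22 (SE). The other gave 5.29, 5.67 and 5.61 in source water pools, against 5.98, 5.17 and 6.57 in control pools, a difference of -0.39 ± 0.31. In both, control pool 3 was the highest of all 6 pools, as it was for Acot3, and without it the differences were -0.09 and -0.06. Both also had source water pool 2 as the highest source water pool, again as for Acot3 and opposite to Acot1, where source water pool 2 was the lowest.

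Per RefSeq (GRCm38.p6), Acot2, Acot1, Acot4, Acot3, Acot5 and Acot6 lie in this order on chromosome 12. A long non-coding RNA gene (Gm40474) lies between Acot1 and Acot4, and a pseudogene (Gm8385) between Acot5 and Acot6. The promoters of Acot1, higher on average, and of Acot4 and Acot3, lower on average, are shown to set the genes' upstream sequences side by side. All of these genes had overlapping groups, so their directions are uncertain. Each promoter runs from 250 bases before to 50 after the annotated start, on the plus strand of GRCm38.p6. Capitals mark the letters AGGTCA on either strand (TGACCT when read on the strand shown), the half-site that PPAR-alpha and other nuclear receptors bind.
Acot1, chr12:84009252-84009551: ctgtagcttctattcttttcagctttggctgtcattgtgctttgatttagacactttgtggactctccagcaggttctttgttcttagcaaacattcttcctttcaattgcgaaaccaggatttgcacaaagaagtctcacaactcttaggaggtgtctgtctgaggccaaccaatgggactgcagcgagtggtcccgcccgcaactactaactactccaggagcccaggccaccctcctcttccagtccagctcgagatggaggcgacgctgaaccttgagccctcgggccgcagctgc
Acot4, chr12:84038129-84038428: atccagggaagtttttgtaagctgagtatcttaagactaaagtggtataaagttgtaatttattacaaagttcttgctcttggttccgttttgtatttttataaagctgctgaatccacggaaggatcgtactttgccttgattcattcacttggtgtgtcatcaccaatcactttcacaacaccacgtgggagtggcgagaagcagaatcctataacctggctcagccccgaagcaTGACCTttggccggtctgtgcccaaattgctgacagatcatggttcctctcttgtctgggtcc
Acot3, chr12:84051894-84052193: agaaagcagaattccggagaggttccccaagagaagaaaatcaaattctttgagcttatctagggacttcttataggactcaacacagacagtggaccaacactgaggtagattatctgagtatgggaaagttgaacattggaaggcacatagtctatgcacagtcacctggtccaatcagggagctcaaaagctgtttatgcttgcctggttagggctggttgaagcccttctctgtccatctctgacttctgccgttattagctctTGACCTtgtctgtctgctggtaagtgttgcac
The half-site letters were absent from this stretch of Acot1, lay at bases -13 to -8 in Acot4, and at bases 19 to 24 after the start in Acot3, on the reverse strand in both (a second annotated start of Acot3 gives the same match). Of the 9 genes with a promoter in the table, which does not list Vnn1, 3 held the half-site (Acot3, Acot4 and Acot12), against 18.1% of all 27025 genes and 16.3% of all 32851 promoter stretches. The direct repeat that PPAR-alpha prefers (DR1), a pair of half-sites in a row with 1 base between them, was searched on both strands with AGGTCA and, more loosely, with AGGNCA as the half-site. It was found in 0 of the 9 genes with either form, against 0.0481% and 0.451% of all genes (0.0396% and 0.381% of all stretches). The repeats contain the half-site or its looser form, and a match or its lack describes these letters only.

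Acot8, a peroxisomal thioesterase of broad chain-length range encoded on another chromosome, read 9.26, 8.86 and 9.14 in source water pools, against 8.85, 8.70 and 8.87 in control pools. The groups overlapped only through source water pool 2, which lay just below control pool 3. The means were 9.09 ± 0.20 in source water and 8.81 ± 0.10 in control (SD, n = 3 each), and the difference was 0.28 ± 0.13 (SE), with a range from 0.19 to 0.39 when each pool was left out.

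Acot12, a cytosolic thioesterase that hydrolyses acetyl-CoA, was read by a pair of probe sets that disagreed. The brightest gave 10.01, 9.62 and 9.88 in source water pools, against 10.07, 9.77 and 9.89 in control pools, with overlapping groups and a difference of -0.08 ± 0.14 (SE). The other gave 8.21, 8.05 and 8.04 in source water pools, against 7.42, 6.62 and 7.80 in control pools, with no overlap and a difference of 0.82 ± 0.27, which was 0.49 without control pool 2. The direction of Acot12 therefore depended on the probe set, and the mean of both was 0.37.

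**Figure D2:**
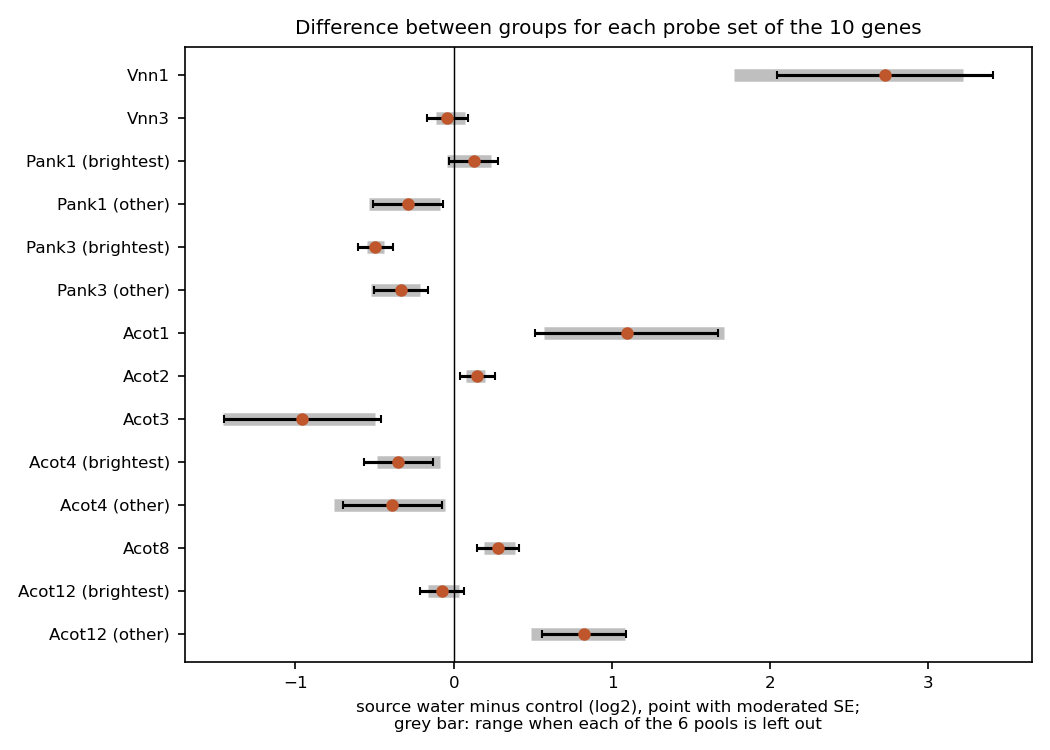
Difference between groups (source water minus control, log2) for each of the 14 probe sets, with the moderated SE as a whisker and the range over leaving out each of the 6 pools as a grey bar. Vnn1 lies far to the right at 2.73, the bars of Vnn1, Acot1 and Acot3 are the longest, and that of the brightest Pank3 probe set is short, from -0.55 to -0.44.

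Over the 14 probe sets, source water lay entirely above control in 3 (Vnn1, Acot2 and the second of Acot12) and entirely below it in 1 (the brightest of Pank3), against 5.52% and 5.14% of all probe sets. Control pool 2 was the lowest control pool in 11 of the 14, against 34.2% of all probe sets, and the lowest of all 6 pools in 5, against 19.3%. Source water pool 2 was the lowest source water pool in 4, against 31.5%, and these 4 (Vnn1, Acot1, Acot8 and the brightest of Acot12) were also the ones with pool 2 lowest in both groups, against 15.9% of all probe sets. By the brightest probe set, 3 of the 10 genes had separate groups, against 11.5% of all genes. Without control pool 2, 1 of the 10 genes was at least 1.5-fold higher (Vnn1), 1 was at least 1.5-fold lower (Acot3), against 1.11% and 1.22% of all genes, and the median over the 10 genes was 0.00193 against 0.0163 for all genes. This removal was chosen after the low signal of Vnn1 had been seen.

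The labelled tissue was checked against marker genes, each list as its mean log2 signal in a pool. The 6 hepatocyte markers, Alb among them, averaged 14.12 to 14.20 over the source water pools and 14.14 to 14.20 over the control pools, and control pool 2 lay at 14.19. Markers of Kupffer cells averaged 8.74 to 9.21 in source water and 8.49 to 9.41 in control, with control pool 2 the lowest. Neutrophil markers averaged 5.19 to 5.69 in source water and 5.09 to 5.64 in control, with control pool 2 the highest control, and endothelial markers 6.77 to 7.04 in source water and 6.50 to 6.89 in control, with control pool 2 again the lowest. All 3 adipocyte and 4 bile duct markers measured lay below the median of all probe sets, at 4.30 to 4.41 and 4.87 to 5.10 in source water and 4.32 to 4.53 and 4.94 to 5.13 in control. Of 4 pancreatic acinar markers 1 lay above it, and the list averaged 6.15 to 6.34 in source water and 6.17 to 6.28 in control, with control pool 2 the highest control in these last 3 lists. Of the markers measured, 0 passed either the adjusted or the 1.5-fold rule given below. The part of any of these cells in the results was not tested. Array medians ranged from 5.80 to 5.86.

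The genes nearest to Vnn1 across the pools were listed, with no cutoff on the distance. After each gene was centred on its own mean over the 6 pools, the 6 genes with the smallest mean absolute difference to Vnn1 were Gdpd3 (0.53), a lysophospholipase D of the endoplasmic reticulum, Defb1 (0.63), a beta-defensin, Elovl3 (0.66), a fatty acid elongase, 2010003K11Rik (0.66), Insig2 (0.71), a sterol-regulated retention protein of SREBP processing, and Clpx (0.73), a mitochondrial protease subunit. In all 6, as in Vnn1, control pool 2 was the lowest of the 6 pools and source water pool 2 the lowest of its group. Gdpd3 was nearest in the depth of that pool, at 4.76 against 8.31 and 8.22 in control pools 1 and 3, but its source water pools of 9.34, 7.83 and 9.11 overlapped the controls. In the other 5 genes source water lay above control in every pool, by 1.48 to 2.06 on average. These genes were picked for their likeness to Vnn1, contrast and low control pool 2 included. Neither their differences nor their shared low pool therefore adds evidence of its own. Whether they vary together with Vnn1 was not tested.

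**Figure D3:**
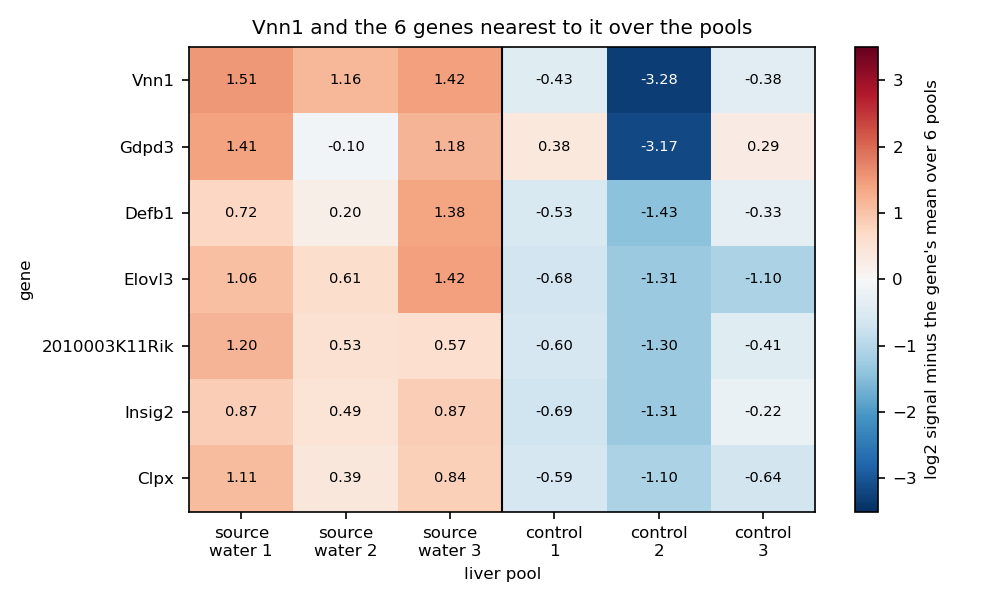
Log2 signal minus the gene's mean over the 6 pools, for Vnn1 (top row) and the 6 genes nearest to it, with source water pools left of the line and control pools right of it. Control pool 2 is the lowest cell of every row, at -3.28 for Vnn1, -3.17 for Gdpd3 and between -1.43 and -1.10 for the others.

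Other genes of CoA and acyl-CoA metabolism, and genes of PPAR-alpha, its regulators and its other targets, were tested with limma over all probe sets, by the brightest probe set of each gene and with Benjamini-Hochberg adjustment. Of 88 measured, 0 passed the adjusted threshold of 0.05, against 0.0323% of all genes and 9 of all probe sets (0.0398%), and 20 had an unadjusted p under 0.05, against 6.76% of all genes. A second, 1.5-fold rule asked for that p and a difference of 1.5-fold or more, and 5 of the 88 passed it (4 up, 1 down), which is 5.68% against 1.74% of all genes and 1.49% of all probe sets. Of these 5, 3 came from the list of PPAR-alpha targets and are not genes of CoA metabolism. The lists were written with earlier results of these data known. Their shares beside those of all genes are therefore a description and no independent evidence. With limma-trend 2 of the 88, Crot and Plin2, passed the adjusted threshold, and with an unmoderated statistic 0 did. The median difference of the 88 genes was 0.10.

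By the brightest probe set, the measured genes that make, move and degrade CoA all differed by less than 1.5-fold. Of 11 measured in that list 7 were higher and 4 lower, 0 passed either rule, and 1, the mitochondrial CoA carrier Slc25a42, had an unadjusted p under 0.05, with a difference of 0.38 ± 0.12 (SE, limma adjusted p = 0.57). Ppcs, the second enzyme of synthesis, differed by 0.30 ± 0.15, the ectoenzyme Enpp3 by 0.46 ± 0.22, and Nudt19, a peroxisomal CoA diphosphatase, by -0.20 ± 0.11. A second probe set of Nudt19 differed by -0.29 ± 0.11, and the other 4 of Enpp3 by -0.08 to 0.40. Of 13 other thioesterases 4 were higher and 9 lower, and 0 had an unadjusted p under 0.05 or passed either rule. The thioesterase Acot9, a mitochondrial one, differed by 0.48 ± 0.33, Acot7 by -0.16 ± 0.11, the acyl-protein thioesterase Lypla1 by -0.19 ± 0.15, and the lysosomal Ppt1 by 0.20 ± 0.16. Acot5 and Acot6, the remaining genes of the cluster on chromosome 12, were dim at 4.02 to 4.80 on average and differed by -0.10 to -0.04. Among 6 genes of cysteamine and taurine metabolism 0 had an unadjusted p under 0.05, and the values were 0.80 ± 0.35 for Csad, -0.10 ± 0.14 for Fmo1, 0.13 ± 0.29 for Gclc and -0.03 ± 0.10 for Cdo1. A second probe set of Gclc, nearly as bright, differed by 0.43 ± 0.16 with no overlap between groups (limma adjusted p = 0.71). Cdo1 and Gclc take part in cysteine use, and Csad makes hypotaurine.

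Transport of acyl groups was the list in which a gene came nearest to the adjusted threshold. Crot, which passes medium-chain acyl groups from CoA to carnitine in peroxisomes and so frees CoA as the thioesterases do, read 13.10, 12.74 and 13.01 in source water pools, against 11.76, 11.37 and 11.82 in control pools. The groups lay far apart relative to their spread, and the difference was 1.30 ± 0.16 (SE, limma adjusted p = 0.0516, which other settings moved between 0.0144 and 0.489). Of the 10 genes of this list 8 were higher and 2 lower, and 4 had an unadjusted p under 0.05, all higher. Besides Crot these were Cpt2 (0.33 ± 0.10), which returns acyl groups to CoA inside mitochondria, the carnitine transporter Slc22a5 (0.47 ± 0.14) and the acyl-CoA binding protein gene Dbi (0.30 ± 0.12), with limma adjusted p-values of 0.488 to 0.737. A second probe set of Cpt2 differed by 0.08, one of Slc22a5 by 0.15, and the other 3 of Dbi by 0.15 to 0.23, with overlapping groups in all 5.

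Acyl-CoA synthetases, which act opposite to the thioesterases, were split, with 7 of 14 higher and 7 lower. Acsl4, a synthetase that prefers arachidonate, passed the 1.5-fold rule at -0.92 ± 0.29 (SE, limma adjusted p = 0.568), and its 3 probe sets were all lower with no overlap between groups, by -0.92, -0.84 and -0.67. The medium-chain synthetase gene Acsm3 differed by -0.48 ± 0.11, Acsl5 by 0.32 ± 0.10 and Slc27a4 by 0.22 ± 0.12, with limma adjusted p-values of 0.311, 0.57 and 0.947.

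PPAR-alpha itself was not higher: Ppara read 10.05, 10.03 and 9.94 in source water pools, against 10.42, 10.15 and 10.38 in control pools. The groups did not overlap, and the difference was -0.31 ± 0.11 (SE, limma adjusted p = 0.697). Of 11 genes for the receptor and its regulators 5 were higher and 6 lower, 0 passed either rule, and the coactivator gene Ppargc1b differed by -0.42 ± 0.18, Ppard by -0.28 ± 0.14 and Creb3l3, a transcription factor of fasting liver, by 0.23 ± 0.11. By contrast, of 26 PPAR-alpha targets other than the 10 genes, 24 were higher and 2 lower, with a median of 0.31. Of these targets 0 passed the adjusted threshold, 10 had an unadjusted p under 0.05, all higher, and 3 passed the 1.5-fold rule: the lipid droplet gene Plin2 at 1.06 ± 0.14 (limma adjusted p = 0.053), the fatty acid binding protein gene Fabp2 at 0.63 ± 0.15 (adjusted p = 0.359) and the hormone gene Fgf21 at 0.97 ± 0.38 (adjusted p = 0.733), named for passing that rule after its values were seen. The groups of Fgf21 overlapped. So did those of Ehhadh (1.07 ± 0.49) and Cyp4a14 (0.66 ± 1.97), which did not pass the 1.5-fold rule. Both were also named after their values were seen. In source water and control, pool 2 was the lowest, at 10.85 and 10.59 for Ehhadh and at 5.63 and 7.53 for Cyp4a14. Gpd1 differed by 0.53 ± 0.11, with its 4 probe sets between -0.05 and 0.53, and the dim Pdk4 by 0.44 ± 0.14. Control pool 2 was the lowest control in 19 of the 26, against 34.2% of all probe sets. Source water pool 2 was likewise the lowest source water pool in 18 of the 26, against 31.5%. Without control pool 2, 21 of the 26 were higher, with a median of 0.22 against 0.0163 for all genes, and 1 passed the 1.5-fold rule. This list too was written with earlier results of these data known, so its counts are a description.

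**Figure D4:**
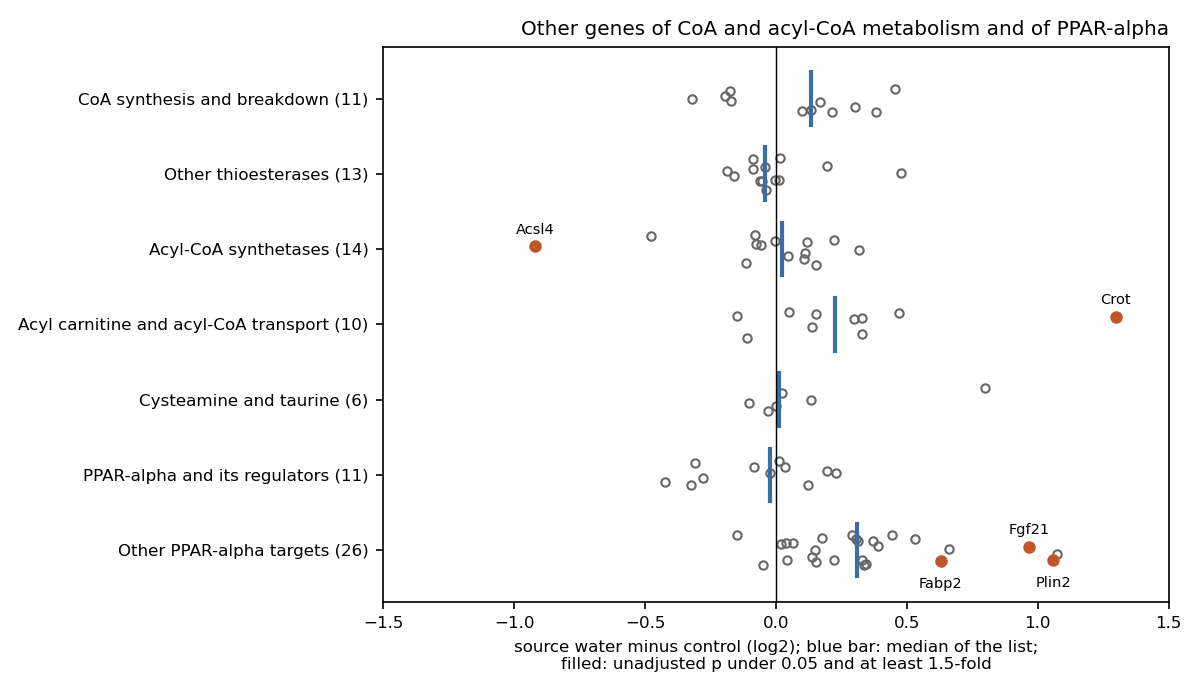
Difference between groups (source water minus control, log2) of each other gene measured in 7 lists of CoA and acyl-CoA metabolism and of PPAR-alpha, with the number of genes in brackets, the list's median as a blue bar, and genes with an unadjusted p under 0.05 and at least 1.5-fold filled and named. Other PPAR-alpha targets lie mostly right of 0 (median 0.31), and the lists of synthetases, thioesterases and regulators lie about 0.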

How the data were processed

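Liver RNA pools were measured on 6 arrays. What the authors deposited are signals on the log2 scale for each probe set and array, and RMA and Partek are named, without versions or settings, per the submitters' processing notes. Per the file headers, a further table of the authors holds group means (log2), a p-value and a ratio with its signed fold change (a score) for each probe set. Its test is not given in the sources used here. Its group means and those computed here lay within 7.7e-05 of each other. From that table only the ratio of Vnn1 is quoted.

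Control probe sets (64 of 22690) were removed, and limma 3.58.1, run in R 4.3.3 with lmFit, eBayes and 1 contrast between 2 groups, was applied to the remaining 22626. P-values were adjusted over all of them by Benjamini and Hochberg's method, with a threshold of 0.05. Standard errors are moderated. The fit was first tested on simulated data. Symbols came from the platform annotation, checked through Entrez identifiers (20351 of 20380 probe sets with 1 symbol matched, 0 changed), and 691 probe sets with several symbols and 1555 with none were not assigned to a gene. The brightest probe set by mean stands for a gene. P-values measure the spread between pools only, in which variation between mice and technical variation cannot be told apart. The labels do not say that pools came from separate housing, so the pools may not be independent.

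The genes and lists were chosen with earlier results of these data known. All 10 genes are described with every probe set of theirs. From each of 7 lists up to 4 genes of smallest unadjusted p were named, and the 6 genes nearest to Vnn1. Fgf21, Ehhadh and Cyp4a14 were named besides, after their values were seen. Promoters are RefSeq's (GRCm38.p6), with 9 of the 10 genes matched. Alternatives were a replicate block, repeated quantile normalization, median centring, filters on dim probe sets, limma-trend, a statistic without moderation, averaging over probe sets of a gene, and removal of each array. The labels do not say that pools with the same number belong together, so the numbers were not taken as pairs. Such pools deviated together at correlations of -0.0727, 0.278 and 0.169 across probe sets. These values cannot decide whether the pools were paired.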

Additional observations from a re-analysis of the deposited data

How the results depend on the processing

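When each array was left out, Vnn1 (2.73) ranged from 1.77 to 3.22, and 3 genes changed sign by their brightest probe set: Vnn3 from -0.11 to 0.07, Pank1 from -0.04 to 0.24 and Acot12 from -0.16 to 0.03. Acot12 was 0.37 with the mean of its probe sets. The median of the 10 genes (0.04) ranged from -0.061 to 0.12 when each array was left out and lay at 0.0327 to 0.0589 under the other normalizations and the mean of probe sets, and 3 genes had separate groups under those normalizations and that mean. With a replicate block, that is, a term for the pool number, the difference of Acot1 kept its size of 1.09 with an SE of 0.12 in place of 0.58, since same-numbered pools differed by 1.22, 0.90 and 1.15, while that of Vnn1 had an SE of 0.48 (same-numbered differences of 1.94, 4.44 and 1.81). The block gave 45 probe sets past the adjusted threshold against 9, and 1 of the 88 other genes in the 7 lists against 0. Not every pool deviated most like its own number: control replicate 1 was nearest to source water replicate 3 (correlation 0.429). Repeated quantile normalization gave 30 probe sets and 2 listed genes, limma-trend 35 probe sets and 2 genes, and a statistic without moderation 0 of each (1249 probe sets at an unadjusted p under 0.05), with 213 probe sets against 337 and 3 listed genes against 5 past the 1.5-fold rule. Leaving out 1 array gave 0 to 14 probe sets past the adjusted threshold (0 without control replicate 1, with 1240 at an unadjusted p under 0.05, 1 without source water replicate 1, 2 without control replicate 3, 14 without control replicate 2) and 3 to 7 listed genes past the 1.5-fold rule (3 without source water replicate 1 or control replicate 2). Gclc (0.13) ranged from -0.125 to 0.38 when each array was left out, below 0 without source water replicate 2 or control replicate 2, and Cdo1 (-0.03) from -0.061 to 0.00413, above 0 without control replicate 1. The cause of these changes was not tested. Dim probe sets (Acot2 and the second ones of Pank3 and Acot4) limit what can be said of those genes.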
